A study of Mus musculus with 16 samples.

Results

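Type I interferon response genes are the antiviral genes that cells switch on after interferon alpha or beta binds its receptor. They were described here in mouse mammary tumours by a list of 36 gene symbols, from the ubiquitin-like modifier Isg15 to the exonuclease Isg20. All 36 symbols were found once each among the 55146 genes of the deposited expression table. All 36 also passed the filter on low values, at least 1 FPKM in at least 4 of 16 libraries, as did 15105 genes in all. FPKM counts the fragments that fell on a transcript, divided by its length in kilobases and by the mapped fragments of the library in M (mega).

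The tumours came from MMTV-PyMT transgenic mice aged 12 weeks, in which a mammary tumour virus promoter drives the polyoma middle T oncogene in mammary epithelium. They were placed in the fourth mammary fat pad of FVB mice, so every group carried the same transgene and the same kind of host. Over 28 days the hosts received sonidegib and an antibody against PD-L1 together (combination), anti-PD-L1 alone at 5 mg/kg 2 times a week, sonidegib alone at 20 mg/kg each day, or vehicle. Sonidegib inhibits Smoothened, which transmits Hedgehog signals, and PD-L1 is the ligand through which tumour and myeloid cells restrain T cells. Each group had 4 tumours with 1 library each. The number of donor tumours is not given in the sources used here, and p-values therefore measure the spread between these tumours only. The series asked which genes differed across the treatments.

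In the textbook pathway, type I interferons bind a receptor made of Ifnar1 and Ifnar2, and the kinases Jak1 and Tyk2 then switch on Stat2, which together with Irf9 acts in a complex that binds the interferon-stimulated response element (ISRE) in target promoters. Interferon gamma acts through another receptor and another promoter element, the gamma-activated sequence (GAS), and many targets answer to both. In tumours the pathway is known for being set off by nucleic acids in the cytosol and for acting on antigen presentation and on T cells.

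The promoter sequences are shown first because the ISRE is the element that the pathway's complex binds. RefSeq promoter windows of GRCm38.p6, reaching from 250 bases before the annotated start to 50 bases after it, were found for 25 of the 36 genes. The ISRE core GAAANNGAAA was searched on both strands, with overlapping matches counted. It was present in 13 of these 25 genes (52%), against 1079 of all 27025 genes with such a window (3.99%) and 3.75% of the tested genes. The 13 genes were Isg15, Ifit1, Ifit3, Ifit3b, Oas1a, Oas3, Rsad2, Stat2, Ddx58, Ifih1, Bst2, Eif2ak2 and Ifitm3. The GAS core TTCNNNGAA, which reads alike on both strands, was present in 7 of the 25 (28%), against 9.55% of all genes with a window. Those 7 were Bst2, Eif2ak2, Ifi35, Ifit2, Ifitm3, Isg20 and Oas1a. A match describes the letters and is no measure of binding.

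Stretches around the ISRE cores of genes that recur in the results are given 5′ to 3′ on the gene's strand, with the core matches in capitals. Isg15 (chr4:156200840-156200931, minus strand) held 3 overlapping cores within 1 run, the densest of the set. Ifit1 (chr19:34640750-34640848, plus strand), Ifit3 (chr19:34583338-34583451, plus strand) and Ifit3b (chr19:34607734-34607847, plus strand) are neighbours and held 2 separate cores each. The printed 114 bases of Ifit3 and Ifit3b had 0 differences. Rsad2 (chr12:26456528-26456607, minus strand) and Stat2 (chr10:128270248-128270320, plus strand) held 1 core each, and Bst2 (chr8:71537552-71537637, minus strand) held 2 that overlap.
Isg15: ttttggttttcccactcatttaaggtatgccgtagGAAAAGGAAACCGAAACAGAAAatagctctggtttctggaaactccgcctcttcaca
Ifit1: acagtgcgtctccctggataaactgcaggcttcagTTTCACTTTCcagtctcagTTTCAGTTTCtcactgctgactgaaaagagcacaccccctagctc
Ifit3: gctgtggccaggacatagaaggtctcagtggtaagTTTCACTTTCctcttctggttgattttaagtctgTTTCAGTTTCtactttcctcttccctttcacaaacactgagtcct
Ifit3b: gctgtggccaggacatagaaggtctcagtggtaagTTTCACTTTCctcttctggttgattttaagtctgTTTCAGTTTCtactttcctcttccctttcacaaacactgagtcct
Rsad2: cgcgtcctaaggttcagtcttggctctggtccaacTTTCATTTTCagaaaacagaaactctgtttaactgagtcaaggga
Bst2: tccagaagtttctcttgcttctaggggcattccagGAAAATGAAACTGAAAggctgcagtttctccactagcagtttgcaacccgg
Stat2: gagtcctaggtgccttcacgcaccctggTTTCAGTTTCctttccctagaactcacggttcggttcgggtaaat

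**Figure D1:**
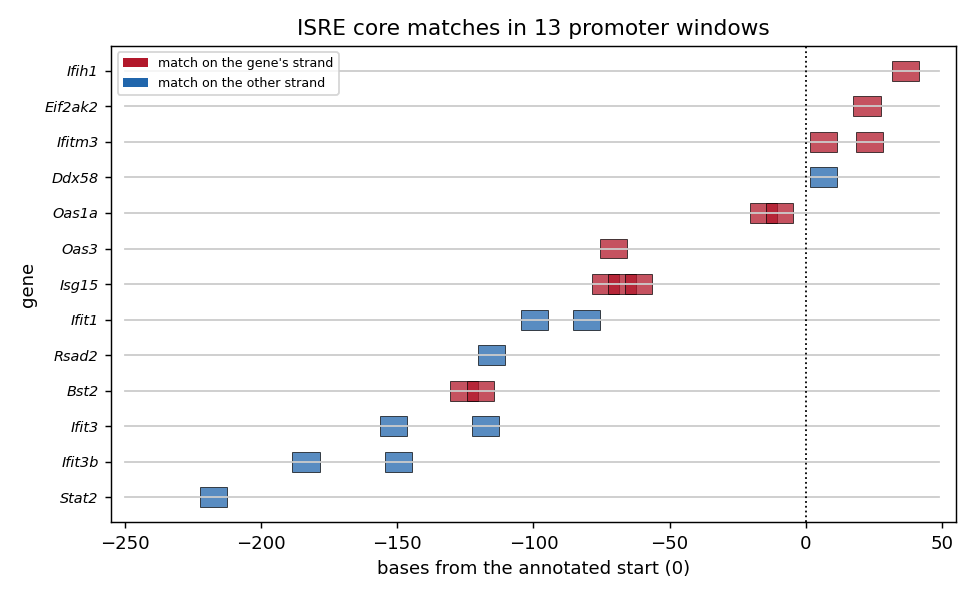
Positions of ISRE core matches (boxes, red on the gene's strand and blue on the other strand) in the promoter windows of the 13 genes that held one, in bases from the annotated start at 0. The Isg15 matches begin 78, 72 and 66 bases before the start, while those of Ifih1, Ddx58, Ifitm3 and Eif2ak2 lie after it.

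The 16 libraries differed in ways that touch every gene, and these are given before the results. Depth, estimated from the smallest steps between low FPKM values and therefore approximate, was 32.0 to 59.1 M fragments, so that 1 fragment on a transcript of 2 kb was worth 0.0094 to 0.0174 FPKM. Vehicle 3 stood apart, with 11361 genes at 1 FPKM or more against 13107 to 14784 in the other 15 libraries. Its median log2 deviation from each gene's median over the libraries was -0.76. Mitochondrially encoded transcripts summed to 41949 FPKM in combination 2 and 38524 FPKM in combination 4, against 3552 to 18642 FPKM in the other 14 libraries. The numbers in the sample names follow the groups, and the names do not say what these numbers stand for. If they mark an order of handling, that order and treatment cannot be told apart.

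The 36 genes spanned a wide range of levels in untreated tumours. Ifitm3, a membrane protein that blocks viral entry, was highest at 203 ± 88.5 FPKM in vehicle tumours (SD, n = 4). Ifi27, an interferon-induced mitochondrial protein, followed at 107 ± 36.5 FPKM and Irf7, the transcription factor that amplifies interferon production, at 50.4 ± 14.04 FPKM. These were the 3 genes at 50 FPKM or more, whereas 15 lay between 10 and 50 FPKM and 18 below 10 FPKM. Ifit2, which binds RNA and limits translation, was lowest at 1.56 ± 1.05 FPKM. Of the 35 neighbouring pairs in the order of vehicle means, 32 differed by less than the larger SD of the pair.

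In combination tumours compared with vehicle tumours, 4 of the 36 genes passed the test and all 4 were higher. They were Eif2ak2, Ifi27l2a, Ifit2 and Parp9, with log2 changes between 1.20 and 2.18. The test was limma on log2(FPKM + 1) over all 16 libraries, with Benjamini-Hochberg adjustment over the 15105 tested genes and a threshold of 0.05. Those 4 were 11.1% of the list, beside 11.3% of all tested genes called in the same comparison (10.3% higher and 0.953% lower), so the share called was near the background. Another 10 genes, all higher, reached an unadjusted p below 0.05, which brought that count to 14 (38.9%), against 33.6% of all tested genes in either direction and 28.6% higher. The log2 change was above 0 for 30 of the 36 (83.3%), against 68.3% of all tested genes. The list's median log2 change was 0.47, against 0.26 for all tested genes. Without combination 4 it was 0.24, against 0.26 for all tested genes, and 24 of the 36 were above 0. Without combination 2 it was 0.84 with 35 above 0, against 0.26, and without vehicle 3 it was 0.32, against 0.07.

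Eif2ak2 encodes PKR, the kinase that senses double-stranded RNA and stops translation (chr17:78852564-78882573, minus strand). It stood at 9.997, 13.4, 18.2 and 25.2 FPKM in combination tumours, against 7.03, 6.36, 3.06 and 9.85 FPKM in vehicle tumours. The groups did not overlap, the lowest combination tumour lying just over the highest vehicle tumour. The log2 change was 1.23 (SE 0.32, limma adjusted p = 0.0357). With a single drug it reached 15.3, 14.9, 10.1 and 9.62 FPKM in anti-PD-L1 tumours and 16.8, 9.15, 10.6 and 8.35 FPKM in sonidegib tumours. Both of these group means lay between those of combination and vehicle tumours, and each group overlapped both.

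Ifi27l2a (chr12:103442167-103443680, minus strand) encodes a small hydrophobic interferon-induced protein and had the largest log2 change of the 36, at 2.18 (SE 0.61, limma adjusted p = 0.0386). It measured 71.6, 25.9, 143 and 376 FPKM in combination tumours, against 38.8, 24.4, 10.7 and 20.4 FPKM in vehicle tumours. Combination 2 lay inside the vehicle range and combination 4 was 5.64 times as high as the highest tumour of the other 3 groups. Anti-PD-L1 tumours, at 18.7, 18.5, 29.7 and 33.2 FPKM, all lay within the vehicle range, while the sonidegib tumours at 66.7 and 49.7 FPKM were above it and those at 23.3 and 32.4 FPKM were not.

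Ifit2 (chr19:34550694-34576419, plus strand) stood at 2.42, 7.62, 13.7 and 12.7 FPKM in combination tumours, against 1.35, 1.03, 0.766 and 3.09 FPKM in vehicle tumours. The log2 change was 1.86 (SE 0.52, limma adjusted p = 0.0399), and combination 1 overlapped the vehicle group. Sonidegib 1, at 15.3 FPKM, was the highest of all 16 libraries for this gene. Parp9 (chr16:35938470-35972605, plus strand), an ADP-ribosyltransferase family member that works with the ubiquitin ligase Dtx3l, stood at 15.9, 27.2, 38.1 and 51.3 FPKM in combination tumours, against 12.7, 13.1, 5.79 and 26.0 FPKM in vehicle tumours. Its log2 change was 1.20 (SE 0.36, limma adjusted p = 0.0438), with 1 combination tumour inside the vehicle range. Parp9 overlaps Dtx3l on the other strand, and whether the counting used strand is not given in the sources used here, so reads of the pair may not have been separated.

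The other tetratricopeptide genes had large changes just outside the threshold. Ifit3 stood at 6.04, 5.06, 23.3 and 84.8 FPKM in combination tumours, against 3.89, 2.12, 1.81 and 4.38 FPKM in vehicle tumours. The groups did not overlap, yet the combination tumours themselves spanned 16.8-fold, the widest of any of the 36 genes. The log2 change of Ifit3 was 2.15 (SE 0.68, limma adjusted p = 0.0532). Ifit1, which grips RNA with a foreign cap, stood at 12.7, 10.9, 17.4 and 66.2 FPKM in combination tumours, against 8.81, 6.04, 3.97 and 9.93 FPKM in vehicle tumours (log2 change 1.44, SE 0.49, limma adjusted p = 0.0602). Here too no values overlapped, and 1 tumour, combination 4, carried most of the excess. Ifit3b had a log2 change of 1.76 (SE 0.60, limma adjusted p = 0.0642) without overlap, but 51.2% of the 50-base words of Ifit3 also occur in Ifit3b, and the assignment of reads between them is uncertain.

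Zbp1, a sensor of left-handed nucleic acids that can start necroptosis, had the smallest SE among the genes whose groups did not overlap. It stood at 21.4, 30.4, 29.9 and 54.3 FPKM in combination tumours, against 18.3, 18.2, 15.5 and 21.2 FPKM in vehicle tumours (log2 change 0.79, SE 0.27, limma adjusted p = 0.0607). Eif2ak2, Ifit1, Ifit3, Ifit3b and Zbp1 were the 5 genes (13.9%) with every combination tumour above every vehicle tumour, against 3.12% of all tested genes, and no gene of the list had them all below (1.27% of all tested genes). The groups overlapped for the other 31 genes. Among these, Ifi44, an interferon-induced cytoplasmic protein, had a log2 change of 1.19 (SE 0.42, limma adjusted p = 0.0628).

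Isg15, Rsad2 and Oas2 were not called. Isg15 stood at 46.3, 12.0, 41.3 and 79.2 FPKM in combination tumours, against 34.9, 30.6, 36.7 and 34.9 FPKM in vehicle tumours. The vehicle tumours were nearly alike, while the combination tumours lay on both sides of them, and the log2 change was 0.11 (SE 0.40, limma adjusted p = 0.873). Rsad2 (viperin, which makes a chain-terminating nucleotide) stood at 4.39, 0.721, 5.68 and 11.2 FPKM in combination tumours, against 7.16, 2.45, 4.25 and 4.56 FPKM in vehicle tumours. Its log2 change was -0.03 (SE 0.47). Oas2, an oligoadenylate synthetase that activates RNase L, stood at 6.26, 1.39, 9.82 and 20.7 FPKM in combination tumours, against 5.96, 4.32, 4.97 and 5.57 FPKM in vehicle tumours (log2 change 0.37, SE 0.50). In all 3 genes combination 4 was the highest of the 16 libraries and combination 2 was the lowest.

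**Figure D2:**
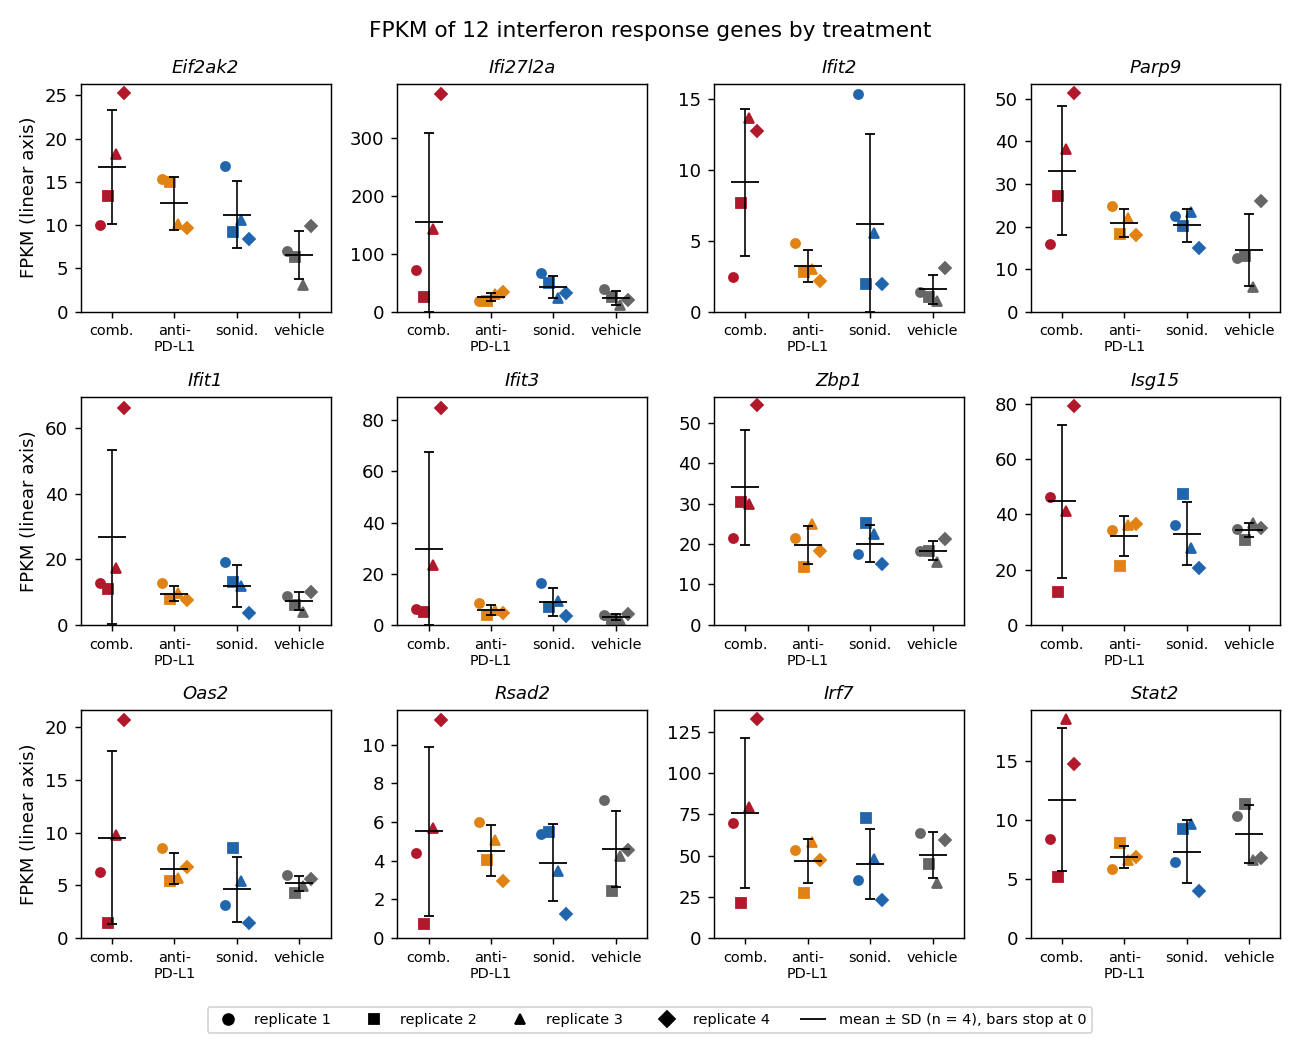
FPKM of 12 interferon response genes on linear axes that start at 0, in combination, anti-PD-L1, sonidegib and vehicle tumours, with 1 symbol per tumour and lines for the mean ± SD (n = 4), the bars stopping at 0. Combination 4 (diamond) reaches 66.2 FPKM for Ifit1, 84.8 FPKM for Ifit3 and 376 FPKM for Ifi27l2a, while the combination tumours lie on both sides of the vehicle tumours for Isg15.

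By role, the 20 antiviral effectors included 2 of the called genes, and their log2 changes ran from -0.31 (Oas1a) to 2.15 (Ifit3) with a median of 0.41. The dynamin-like GTPases Mx1 and Mx2 had log2 changes of 0.45 and 0.34, the oligoadenylate synthetase relatives Oasl1 and Oasl2 -0.11 and 0.18, and tetherin (Bst2), which holds budding virions at the membrane, 0.36. None of these passed the test. Oas1a shares 57.6% of its 50-base words with Oas1g, so its reads may be divided between them, and Mx2 is annotated as a polymorphic pseudogene. The 3 transcription factors, of which Stat2 and Irf9 belong to the ISRE-binding complex, had log2 changes from 0.27 to 0.36, and none was called. Irf7 stood at 69.7, 21.2, 79.7 and 133 FPKM in combination tumours, against 63.8, 44.9, 33.2 and 59.7 FPKM in vehicle tumours, again with combination 2 the lowest of the 16. Irf7 overlaps Phrf1 on the other strand, and Irf9 overlaps Rnf31 on the same strand.

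The RNA sensors showed no call either. Ddx58 (RIG-I) had a log2 change of 0.55 (SE 0.37) and Ifih1 (MDA5) of 0.67 (SE 0.32). Dhx58 (LGP2), a sensor relative without signalling domains, was at -0.32 (SE 0.35), and Trim25, the ubiquitin ligase linked to RIG-I activation, was at -0.44 (SE 0.25), the lowest of the 36. Usp18, which removes Isg15 from proteins and restrains the receptor, was at 0.24 (SE 0.50), and Herc6, which attaches Isg15 in the mouse, at 0.90 (SE 0.35, limma adjusted p = 0.0843). Parp14, another ADP-ribosyltransferase, was at 0.92 (SE 0.33, limma adjusted p = 0.0683).

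**Figure D3:**
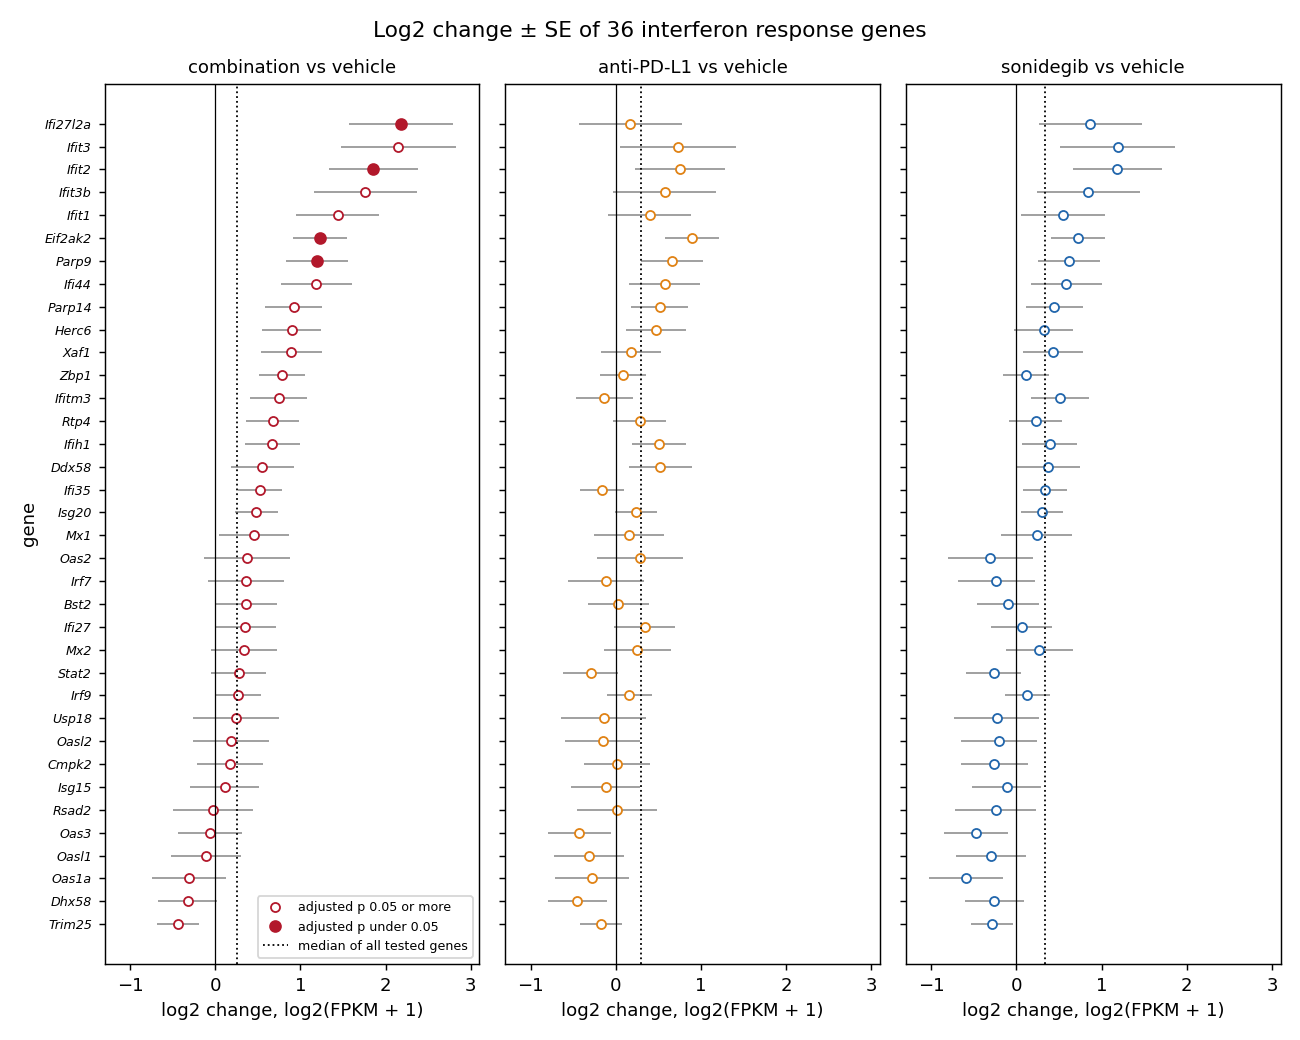
Log2 change on the log2(FPKM + 1) scale of each of the 36 genes in combination, anti-PD-L1 and sonidegib tumours, each against vehicle tumours, with bars for 1 SE from limma (n = 4 tumours a group), filled points for genes that passed the test and a dotted line at the median of all tested genes. In the combination comparison the values run from -0.44 (Trim25) to 2.18 (Ifi27l2a), and its 4 called genes are Eif2ak2, Ifi27l2a, Ifit2 and Parp9.

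Neither drug alone gave a call among the 36. In anti-PD-L1 tumours compared with vehicle tumours, 0 of 36 were called, as were 0% of all tested genes. Only Eif2ak2 had an unadjusted p below 0.05 (log2 change 0.89, SE 0.32, limma adjusted p = 0.158), which is 2.78% of the list against 24.6% of all tested genes. Of the 36, 24 had a log2 change above 0 (66.7%), against 76.1% of all tested genes, and the list's median was 0.16, against 0.30. Ifi44 was the 1 gene without overlap, at 15.5, 11.3, 11.1 and 10.5 FPKM in anti-PD-L1 tumours, against 7.43, 7.73, 5.99 and 10.1 FPKM in vehicle tumours, in a comparison where 3.39% of all tested genes lay wholly above. The direction of the list's median depended on the scaling. After quantile normalization 13 genes were above 0 and the median was -0.14, against -0.00124 for all tested genes, and after median-of-ratios scaling 14 were and it was -0.14, against 0.06. Without vehicle 3, 19 genes were above 0 and the median was 0.00735, against 0.12.

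In sonidegib tumours compared with vehicle tumours, again 0 of 36 and 0% of all tested genes were called. Eif2ak2 (log2 change 0.73, SE 0.32, limma adjusted p = 0.161) and Ifit2 (log2 change 1.19, SE 0.52, limma adjusted p = 0.165) had an unadjusted p below 0.05, which is 5.56% of the list against 27.3% of all tested genes. The log2 change was above 0 for 22 (61.1%), against 77.8% of all tested genes, the median was 0.23, against 0.33, and no gene had groups without overlap (6% of all tested genes lay wholly above). Here too the scaling turned the list's median, to -0.11 with 14 genes above 0 after quantile normalization (0.00719 for all tested genes) and to -0.10 with 15 above 0 after median-of-ratios scaling (0.06). Without vehicle 3, 20 genes were above 0 and the median was 0.04, against 0.15. Without sonidegib 2 it was 0.11, against 0.33, with 19 genes above 0, and without sonidegib 4 it was 0.29, against 0.37, with 30 above 0. The 3 comparisons with vehicle share the same 4 vehicle tumours.

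The combination was also set against each drug alone. Compared with anti-PD-L1 tumours, 0 of the 36 were called (0.00662% of all tested genes), with the lowest limma adjusted p at 0.726. The log2 change was above 0 for 33 of them (91.7%), against 43.7% of all tested genes, and the list's median was 0.35, against -0.05. The 5 genes with an unadjusted p below 0.05 (13.9%, against 5.78% of all tested genes) were Ifi27l2a (2.01), Ifit1 (1.04), Ifitm3 (0.88), Zbp1 (0.70) and Ifi35 (0.69, a partner of Nmi), in log2 changes. Ifitm3 stood at 292, 220, 355 and 442 FPKM in combination tumours, against 161, 157, 200 and 172 FPKM in anti-PD-L1 tumours, without overlap, and Ifi35 did not overlap either (1.36% of all tested genes lay wholly above). The size of the list's shift depended on combination 4, as without it 21 genes were above 0 and the median was 0.08, against -0.06 for all tested genes. Without combination 2 the median was 0.67, against -0.05.

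Compared with sonidegib tumours, 0 of the 36 were called (0% of all tested genes), with the lowest limma adjusted p at 0.959. Values above 0 were found for 34 (94.4%), against 40% of all tested genes, with a median of 0.44, against -0.07. Zbp1 and Ifi27l2a had an unadjusted p below 0.05 (5.56%, against 4.28%), and no gene lay wholly above (0.483%). Without combination 4, 28 genes were above 0 and the median was 0.09, against -0.07. Without sonidegib 4, 29 were and it was 0.25, against -0.11, and without combination 2 it was 0.71, against -0.07. Sonidegib tumours compared with anti-PD-L1 tumours also gave 0 calls (0% of all tested genes) and 0 genes at an unadjusted p below 0.05 (2.09% of all tested genes). There the log2 change was above 0 for 17 (47.2%), against 52.4%, the median was -0.04, against 0.01, and Ifi35 and Ifitm3 lay wholly above (5.56%, against 2.24%). Single libraries set the direction of that median, which was 0.16 with 31 genes above 0 without sonidegib 4 (0.05 for all tested genes) and -0.09 with 9 above 0 without sonidegib 2 (0.01). Leaving out anti-PD-L1 1 or anti-PD-L1 3 also put it above 0, at 0.02 and 0.00839.

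The interaction term asks whether the combination differs from the sum of the single-drug changes. It gave 0 calls among the 36 (0.00662% of all tested genes) and 0 genes at an unadjusted p below 0.05, where 9.88% of all tested genes were. The estimate was above 0 for 26 genes (72.2%), against 20.5% of all tested genes, and the list's median was 0.31, against -0.35. Without combination 4 the list's median turned to -0.06 with 14 genes above 0, against -0.37 for all tested genes, and without sonidegib 4 it was 0.04 with 19 above 0, against -0.39. Leaving out vehicle 1, vehicle 4, anti-PD-L1 2 or combination 3 gave list medians of 0.18 to 0.22. After quantile normalization it was 0.63, against -0.01, and after median-of-ratios scaling 0.69, against -0.01. Stat2 had the lowest limma adjusted p, 0.486, with an estimate of 0.83 (SE 0.46). Stat2 stood at 8.36, 5.19, 18.5 and 14.7 FPKM in combination tumours, 5.80, 8.07, 6.60 and 6.85 FPKM in anti-PD-L1 tumours, 6.43, 9.20, 9.62 and 3.94 FPKM in sonidegib tumours and 10.3, 11.4, 6.58 and 6.81 FPKM in vehicle tumours. Both single-drug means lay below the vehicle mean and the combination mean above it, with overlap throughout.

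A test across the 4 groups together called 0 of the 36 (0.0199% of all tested genes), with 6 at an unadjusted p below 0.05 (16.7% against 23.7%) and a lowest limma adjusted p of 0.162. The combination nonetheless had the highest of the 4 group means for 32 of the 36 genes (88.9%), against 28.8% of all tested genes. The exceptions were Ifi27, highest in anti-PD-L1 tumours, and Oas1a, Dhx58 and Trim25, highest in vehicle tumours. Without combination 4, an alternative chosen after seeing the data, the count was 20 (55.6%), against 24.8% of all tested genes.

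The 36 genes spread widely among the combination tumours. The ratio of the highest to the lowest combination tumour had a median of 4.66 over the 36 genes, against 1.87 over all tested genes with values above 0. In anti-PD-L1 tumours these medians were 1.66 and 1.55, in sonidegib tumours 2.53 and 1.72, and in vehicle tumours 2.19 and 2.95. The list's median thus lay above that of all tested genes in combination, sonidegib and anti-PD-L1 tumours, and below it in vehicle tumours. This is given as a description without a test.

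A few tumours held the extremes for most of the list. Combination 4 was the highest of the 16 libraries for 30 of the 36 genes (83.3%), against 12.1% of all tested genes. Combination 3 and combination 4 were together the highest pair for 22 genes (61.1%), against 2.2% of all tested genes. At the other end, combination 2 was the lowest of the 16 for 14 genes (38.9%), against 5.83% of all tested genes. Vehicle 3 was the lowest for 17 (47.2%), against 65.3% of all tested genes, as its values were low over most of the table. Combination 2 and sonidegib 4 were together the lowest pair for 14 genes (38.9%), against 1.63% of all tested genes, namely Isg15, Mx1, Mx2, Oas2, Oas3, Oasl1, Oasl2, Rsad2, Usp18, Irf7, Stat2, Dhx58, Trim25 and Cmpk2.

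**Figure D4:**
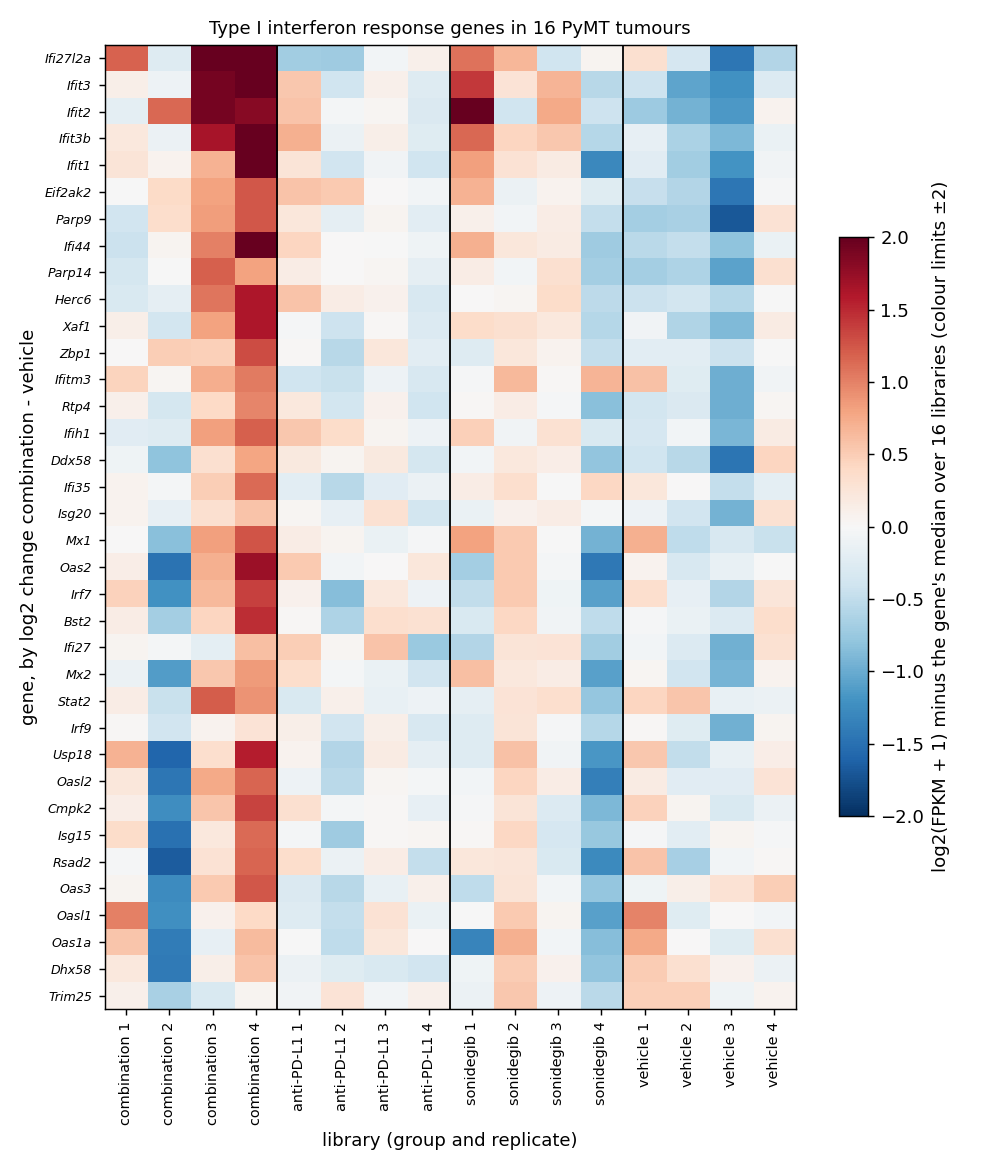
Log2(FPKM + 1) of the 36 genes in the 16 tumours, each gene relative to its own median over the libraries, with combination tumours at the left, vehicle tumours at the right, red above and blue below the median, and colours limited to ±2. Combination 4 is the highest library for 30 genes, and combination 2 and sonidegib 4 are the lowest pair for 14.

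Each treated tumour was next set against the range of the 4 vehicle tumours. Combination 4 lay above that range for 33 of the 36 genes (91.7%) and below it for 0, and combination 3 lay above it for 28 (77.8%) and below it for 1, Trim25. Over all tested genes these tumours lay above the range for 34.7% and 33.8%. Combination 1 lay above it for 12 genes (33.3%, against 10.3% of all tested genes) and below it for 0.

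Combination 2 split the list. In that tumour 8 genes lay above the vehicle range, namely Ifit1, Ifit2, Ifit3, Ifit3b, Ifi44, Zbp1, Parp9 and Eif2ak2 (22.2%, against 34.6% of all tested genes), while 16 lay below it (44.4%, against 14.5% of all tested genes). The 16 included Isg15, Rsad2, Usp18, Irf7, Stat2 and the oligoadenylate synthetases. GC content, taken over all annotated transcripts of each gene, had a median of 45.1% for the 8 genes and 51.4% for the 16, against 49.2% for all 36. Values in combination 2 also fell with GC content over all tested genes, with a slope of -3.40, against -4.11 to 2.26 in the other combination tumours and -0.58 to 4.88 in vehicle tumours (log2 units per unit of GC fraction). The part of GC content in this split was not tested gene by gene, and calls after removing the GC trend are given with the alternatives.

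Single-drug tumours also differed among themselves. Sonidegib 2 lay above the vehicle range for 21 genes (58.3%, against 27.6% of all tested genes) and below it for 0. Sonidegib 4 lay above it for 2 (5.56%, against 24.1%) and below it for 18 (50%, against 11% of all tested genes). Anti-PD-L1 2 lay below it for 11 genes (30.6%, against 5.96%), among them Isg15, Irf7 and Usp18. Anti-PD-L1 1 lay above it for 14 (38.9%), near the 36.6% of all tested genes.

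**Figure D5:**
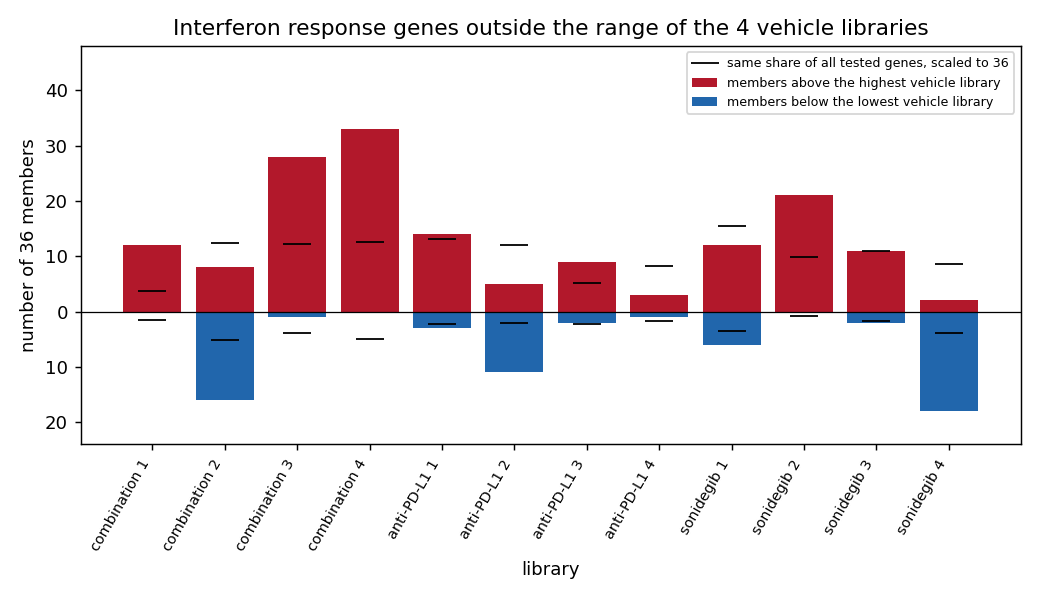
Number of the 36 genes above (red, upward bars) and below (blue, downward bars) the range of the 4 vehicle tumours in each treated tumour, with short black lines for the same share of all tested genes scaled to 36. Combination 4 has 33 genes above and 0 below, combination 2 has 8 above and 16 below, and sonidegib 4 has 2 above and 18 below.

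Upstream of these genes, the ligands were at or near 0 in every library. None of the 21 listed interferon genes passed the filter. The 18 type I ligand genes reached at most 0.361 FPKM in any library, 5 of them were listed at 0 in all 16, and Ifnb1 reached at most 0.109 FPKM. Interferon gamma (Ifng), made mainly by T and NK cells, stood at 0.102, 0.246, 0.525 and 0.239 FPKM in combination tumours and was listed at 0 in all 4 vehicle tumours. The exact permutation test gave p = 0.0286, two-sided and the smallest that 4 against 4 allows, which became 0.515 after adjustment over 72 such tests of low genes. Many of the 72 tests were of genes listed at 0 in all or nearly all libraries, which could not reach that smallest p. No adjusted p of these tests could therefore pass the threshold, so the adjusted values do not decide whether a low gene differed. In sonidegib tumours Ifng averaged 0.0923 FPKM, with the same p and adjusted p against vehicle tumours. Ifnb1 lay the other way, at a mean of 0.0146 FPKM in combination tumours, 2 of them listed at 0, and of 0.0788 FPKM in vehicle tumours, again with these p-values. The 1 other test of the 72 to reach them was Ifne, at a mean of 0.0346 FPKM in anti-PD-L1 tumours and listed at 0 in all 4 vehicle tumours. At this depth the levels of Ifnb1 and Ifne correspond to few fragments. Ifng stood higher in combination tumours, up to 0.525 FPKM in combination 3. There 1 fragment on a transcript of 2 kb was worth 0.0119 FPKM, so that value rests on more than a few.

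Of 52 upstream genes with a value (receptors, kinases, factors, sensors and ligands), 28 were tested, and 4 (14.3%, against 11.3% of all tested genes) were called in combination tumours compared with vehicle tumours, all higher. Nmi, a partner of Ifi35, stood at 7.91, 16.6, 18.5 and 26.3 FPKM in combination tumours, against 3.75, 4.70, 1.78 and 10.6 FPKM in vehicle tumours (log2 change 1.64, SE 0.36, limma adjusted p = 0.0342). Only combination 1 lay inside the vehicle range for this gene. The DNA sensors Ifi204 and Aim2 had log2 changes of 1.38 and 0.79 (limma adjusted p = 0.0342 for both), and the endosomal RNA receptor Tlr7 one of 0.70 (limma adjusted p = 0.0434). The count of 4 moved with the calls over all genes. It was 0 without vehicle 1, vehicle 2, vehicle 3, combination 2 or combination 4 and without the filter, 2 without combination 3 or with the GC trend removed, 8 without combination 1 and 10 without vehicle 4.

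The receptor chains and the remaining kinases were not called. Ifnar1 had a log2 change of 0.34 and Ifnar2 of 0.51, while Irf1, a factor that interferon gamma induces strongly, was at 0.96 (limma adjusted p = 0.0608) and Irf3, which starts interferon beta transcription, at 0.11. Tyk2 was at -0.41, with every combination tumour below every vehicle tumour (limma adjusted p = 0.117). None of the 28 genes was called by limma in any other comparison with all 16 libraries. There 0 (interaction, 9.88% of all tested genes) to 6 (across the 4 groups, 21.4%, against 23.7% of all tested genes) had an unadjusted p below 0.05. Without vehicle 4, 6 were called across the 4 groups and 5 in each single drug against vehicle, where 22.2%, 26.2% and 26.5% of all tested genes were. Without combination 1, 4 were called across the 4 groups (12.2% of all tested genes) and 2 in combination compared with sonidegib tumours (0.777%).

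Markers of some cell types, immune and other, were also called in combination tumours compared with vehicle tumours, where 11.3% of all tested genes were called. Marker calls were counted without direction and were not repeated with libraries left out. Calls over all tested genes in this comparison ran from 0.0199% without vehicle 3 to 33% without vehicle 4. The labelled breast tumour tissue carried its epithelial markers, whose summed level was 793 to 1640 FPKM in combination tumours and 467 to 2000 FPKM in vehicle tumours. All 3 monocyte markers were called (summed level 6.60 to 36.5 FPKM in combination tumours, 2.06 to 4.40 FPKM in vehicle tumours), as were both tested T cell markers of 6 listed and 2 of 8 macrophage markers. The T cell sum was 2.08 FPKM in combination 1 and 14.4 to 20.0 FPKM in the other combination tumours, against 1.10 to 3.05 FPKM in vehicle tumours. Combination 2, which had the lowest values for 14 of the interferon genes, thus had T cell and monocyte sums (17.3 and 29.8 FPKM) in the range of combination 3 and combination 4. The 1 tested NK cell marker, 3 of 6 fibroblast markers and the 1 tested adipocyte marker were also called. None of the 3 tested neutrophil, 3 endothelial, 3 skeletal muscle or 5 epithelial markers was called, nor the 1 tested conventional dendritic cell marker, and no B cell marker was tested. Markers of plasmacytoid dendritic cells, the specialised makers of interferon alpha, summed to 0.477 to 10.2 FPKM in combination tumours, highest in combination 4, and to 0.601 to 3.71 FPKM in vehicle tumours, and the 1 tested was not called. The highest sum of any library was 16.7 FPKM, in anti-PD-L1 2. The plasmacytoid markers were Siglech, Ccr9, Klk1 and Cox6a2. In each group the tumour with the highest sum of these also had the highest skeletal muscle sum. Those muscle sums were 243 FPKM in anti-PD-L1 2, 131 FPKM in combination 4, 111 FPKM in vehicle 1 and 41.3 FPKM in sonidegib 2. Whether muscle tissue added to the plasmacytoid sums was not tested, so they cannot be read as amounts of plasmacytoid dendritic cells. No T cell, monocyte or macrophage marker was at 0 in any library of these groups. In bulk tissue, fewer cells of a type and less RNA per cell cannot be told apart, and the part of cell composition in the interferon genes was not tested.

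The count of 4 called genes depended on single libraries. Leaving out 1 library at a time gave 0 calls among the 36 without vehicle 1, vehicle 2, vehicle 3, combination 3 or combination 4. Without combination 2 it gave 1 (Ifi27l2a), beside 0.0534% of all tested genes. It gave 12, all higher, without vehicle 4 and also without combination 1, and 2 without anti-PD-L1 2, anti-PD-L1 3 or sonidegib 3. The calls over all tested genes moved with them. The 12 members (33.3%) stand beside 33% of all tested genes without vehicle 4 and 28.2% without combination 1, close to the background. The 5 settings with 0 member calls had 0.0199% (vehicle 3 left out) to 3.45% (combination 3 left out) of all tested genes called, and the 3 settings with 2 had 6.85% to 7.52%. Removing the trend with GC content gave 0 calls among the 36, beside 4.04% of all tested genes, with a list median of 0.48 and 32 genes above 0. Testing every gene above 0 without the filter gave 0 as well, beside 0.021% of the genes tested there.

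Scaling changed the direction of several members. The median of all tested genes was 0.26 as deposited, -0.03 after quantile normalization and 0.07 after median-of-ratios scaling, and the list's median was 0.18 and 0.26 after these. Over all tested genes, 1326 of 2634 calls were higher after quantile normalization and 1855 of 2876 after median-of-ratios scaling, against 1559 of 1703 as deposited. Both scalings kept all 4 called members and added Trim25 as lower, and median-of-ratios scaling also added Ifit3 as higher. Isg15, Oasl2 and Usp18 were below 0 under both scalings.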

How the data were processed

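RNA was measured in 16 mouse tumours, 4 per group. The values deposited by the authors are FPKM per gene in 1 table, a unit already divided by transcript length and library depth. Per the submitters' processing notes, which give no order, the genome was GRCm38.p6 (also named mm10) and the tools were TopHat and Cufflinks. The sources used here give neither tool versions nor the annotation. Per the labels' protocols the libraries were stranded and rRNA-depleted, although another label names polyA RNA, and this was not resolved. FPKM are not counts, so no count model was run, and depth was only estimated. Values were tested as log2(FPKM + 1), a scale that understates changes of low genes, with limma 3.58.1 in R 4.3.3 (1 mean per group, trended and robust variance, all 16 libraries) and Benjamini-Hochberg adjustment over the 15105 genes that reached 1 FPKM in 4 or more libraries, at a threshold of 0.05. Genes under the filter had exact permutation tests. The fit was tested on simulated data with independent noise for each gene and library. That simulation held no shift of a whole library and no GC trend, so it does not cover such differences between the real libraries. Motifs were searched with Python 3.11.15 and genes were located in a GENCODE annotation of GRCm38.

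Members, gene lists and alternatives were chosen with earlier results of these data known. The genes named were a set of main pathway genes plus, in each comparison, the 5 with the lowest p; others are named by role, or because of a value that was seen. Alternatives were another pseudocount, no filter, quantile and median-of-ratios scaling, removal of the GC trend, a replicate block and leaving out libraries. No single-cell or protein measurements were used. The upstream list is given without 1 gene, which is not reported here.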

Additional observations from a re-analysis of the deposited data

Results flagged for a closer look

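Each of the 36 genes was looked at in each group of 4 tumours for a tumour far from the other 3, in 144 groups in all. A gap above the 95% critical value of Dixon's test was found in 5 of them, where chance alone flags about 1 in 20 groups. Ifit1 stood at 66.2 FPKM in combination 4, against 10.9 to 17.4 FPKM in the other combination tumours. Isg15 stood at 21.3 FPKM in anti-PD-L1 2, against 34.4 to 36.5 FPKM in the other anti-PD-L1 tumours. Ifi44 stood at 15.5 FPKM in anti-PD-L1 1, against 10.5 to 11.3 FPKM in the others of that group. Vehicle 1 was high for Mx1, at 5.06 FPKM against 1.61 to 1.97 FPKM, and for Oasl1, at 9.55 FPKM against 3.49 to 4.32 FPKM, in the other vehicle tumours.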

How the results depend on the processing

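In combination tumours compared with vehicle tumours, where 4 of the 36 genes were called, quantile normalization and a pseudocount of 0.1 each gave 5 (beside 17.4% and 11.8% of all tested genes), median-of-ratios scaling gave 6 (19%), and dropping the filter or removing the GC trend gave 0 (0.021% and 4.04%). Leaving out 1 library at a time gave 0 to 12, with 0.0199% to 33% of all tested genes called. Leaving out vehicle 3 and combination 4 together, an alternative chosen after seeing the data, gave 0, with a median log2 change of 0.05 for the list and 0.07 for all tested genes. Over all 23 alternatives the 4 called genes stayed above 0, with log2 changes of 0.75 to 1.44 for Eif2ak2 (limma adjusted p 0.00461 to 0.305, called in 14), 1.24 to 2.82 for Ifi27l2a (0.0213 to 0.305, called in 15), 1.43 to 2.39 for Ifit2 (0.00404 to 0.305, called in 10) and 0.61 to 1.52 for Parp9 (0.00445 to 0.339, called in 7). Across the 4 groups the leave-out range was 0 to 3, and for anti-PD-L1 and for sonidegib against vehicle it was 0 to 2, the 2 being Parp9 and Eif2ak2 without vehicle 4. The other comparisons kept 0 calls under every alternative.

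Same-numbered tumours did not deviate together (correlations of -0.43 to 0.34, median -0.05 over 24 pairs). Tumours with different numbers had correlations of -0.46 to 0.48, with a median of 0.03 over 72 pairs. No pairing by number was detected, but correlations over all tested genes cannot show that the numbers mark no shared donor. A fit with the replicate number as a block called 2 of the 36, Ifi27l2a and Eif2ak2, in combination tumours compared with vehicle tumours, beside 7.79% of all tested genes.

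Some named genes turned to the other side of 0 in combination tumours compared with vehicle tumours, each with a limma adjusted p of 0.412 or more there. Quantile normalization put Isg15 at -0.20, Oasl2 at -0.10, Irf9 at -0.0318, Stat2 at -0.0258 and Usp18 at -0.0805. Median-of-ratios scaling put Isg15 at -0.16, Oasl2 at -0.0788 and Usp18 at -0.00804. With libraries left out, Isg15 ran from -0.25 to 0.63, Oas2 from -0.12 to 0.95, Oasl2 from -0.22 to 0.72, Rsad2 from -0.45 to 0.51, Irf7 from -0.17 to 0.87, Irf9 from -0.0492 to 0.40, Usp18 from -0.25 to 0.85, Ddx58 from -0.0152 to 0.86 and Bst2 from -0.0983 to 0.70. In sonidegib tumours compared with anti-PD-L1 tumours, Ifit2 ran from -0.0905 to 0.74. The cause was not tested.

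FPKM without counts give no counting error per value, and the lowest ligand levels, such as those of Ifnb1 at 0.109 FPKM or less, rest on few fragments. With 4 tumours a group, and combination tumours that spread over 4.66-fold for the median gene of the list, a p above the threshold does not show that values did not differ.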
